A study of Homo sapiens with 12 samples.

Results

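The genes described here were 41 of the 3281 genes listed in the deposited tables of a study of the S80A mutation of NFKB1 in the human monocytic cell line THP-1. They were chosen by their measured levels: the mean of the wild-type (WT) libraries was at least 3 times the mean of the S80A libraries both before lipopolysaccharide (LPS) and 3 hr after it, and the WT mean was at least 50 scaled reads at both times. A scaled read is a sequenced read divided by a size factor that the authors set for each library. Of 46 genes that met these limits, the mitotic genes CDC20, PLK1 and AURKA and the interferon-induced genes MX1 and GBP5 were left out by the same rule. Each of the 41 genes is also LPS-responsive in a fixed sense: it stands in at least 1 of 2 tables that list only genes past the authors' limits for LPS at 3 hr against 0 hr (adjusted p below 0.01, log2 fold past 1 in either direction), 1 table for WT cells with 2335 genes and 1 for S80A cells with 2508 genes. Because of this choice, a lower level in S80A at either time was used to find the genes and is given below as a description, with no test.

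The cells were THP-1 cells, a line from a monocytic leukaemia that becomes macrophage-like under phorbol ester. Both genotypes, WT and NFKB1S80A, had 25 ng/ml of the phorbol ester PMA for 72 hr and then 4 days without it. They were then taken untreated (0 hr) or after 3 hr with 10 ng/ml LPS, so the 4 groups (WT 0 hr, WT 3 hr, S80A 0 hr, S80A 3 hr) had 3 libraries each and every group had been exposed to PMA. The labels used here do not say how the mutation was made or whether the S80A cells came from 1 clone, so a property of that line and the effect of the mutation cannot be told apart. Nor do they say that the replicates were separate cultures, and p-values then measure the spread between these libraries.

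NFKB1 encodes p105, which is processed to p50, the NF-κB subunit that has a DNA-binding domain but no transactivation domain of its own. Dimers of p50 with RELA drive many LPS-induced genes, and homodimers of p50 can hold the same sites without activating them. In macrophages LPS acts through TLR4 and induces cytokines, surface receptors and feedback regulators, while it lowers genes of cell division and some chemokine receptors. Serine 80 lies in the part of the protein that p105 and p50 share.

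Polyadenylated RNA was sequenced, and reads on the listed genes totalled 1924562 to 5789918 per library. S80A replicate 1 was the highest S80A library for 32 of the 41 genes at 3 hr and for 26 at 0 hr, so values are given below with and without it. Over all listed genes it was the highest for 40.6% at 3 hr and for 29.9% at 0 hr, the latter under an even share among 3 libraries. The tables list only LPS-responsive genes, and 2 of 15 monocyte and macrophage markers, CD14 and CD163, were among them. No marker of T cells, NK cells, granulocytes, fibroblasts or epithelial cells was listed. The B-cell markers CD79B and PAX5 summed to 34.7 to 74.8 in WT and 34.6 to 78.7 in S80A at 0 hr, and to 82.2 to 207 and 25.2 to 74.8 at 3 hr. The dendritic marker CD207 was at most 1.05 at 0 hr and at most 14.6 at 3 hr. The endothelial marker KDR was higher in every S80A library at 0 hr, at 38.8 to 88.2 against 1.61 to 3.46 in WT, and at 3 hr the genotypes overlapped. The part of these markers in the results was not tested.

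The set divided by known role into 12 genes of mitosis and chromosomes, 12 of myeloid signalling and the cell surface, 5 transcription factors, 4 genes of metal, steroid and cytokine feedback, 2 non-coding RNAs and 6 others. Their median WT to S80A fold was 4.19 at 0 hr, from 3.00 for CENPF to 54.0 for HCP5, and 4.61 at 3 hr, from 3.06 for GFI1 to 338 for HCP5. The median over all listed genes was 0.849 at 0 hr and 0.858 at 3 hr. All 3 S80A libraries lay below all 3 WT libraries for 41 of the 41 genes at 0 hr and for 40 at 3 hr, the exception being BATF3. The same held for 17.5% of all listed genes at 0 hr and 23.3% at 3 hr, and since the fold chose the set, nothing is read from that excess. A WT mean at least 3 times the S80A mean, with no limit on level, occurred in 6.1% of listed genes at 0 hr and in 7.74% at 3 hr. Taken alone, S80A replicate 1 gave a median fold of 3.47 at 0 hr and 3.55 at 3 hr, and the mean of replicates 2 and 3 gave 4.62 and 6.32.

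**Figure D1:**
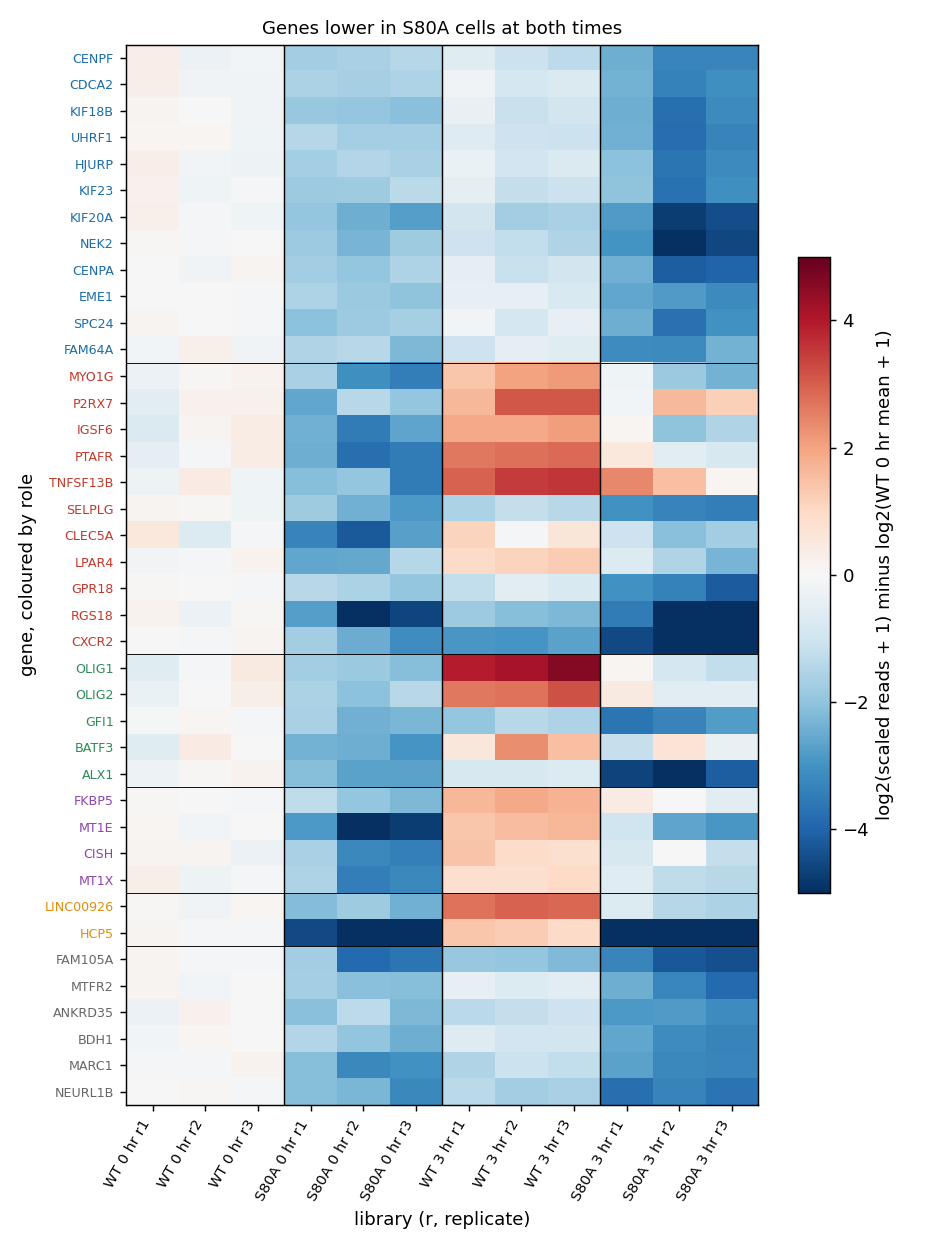
Level of 40 of the 41 genes (rows, grouped by role) in each of the 12 libraries (columns), as log2(scaled reads + 1) minus the mean of that gene's 3 WT libraries at 0 hr; the colour scale ends at 5 in both directions. The S80A columns are below the WT columns of the same time in all rows but BATF3 at 3 hr, and S80A replicate 1 is the palest of the 3 S80A columns at 3 hr in most rows.

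**Figure D2:**
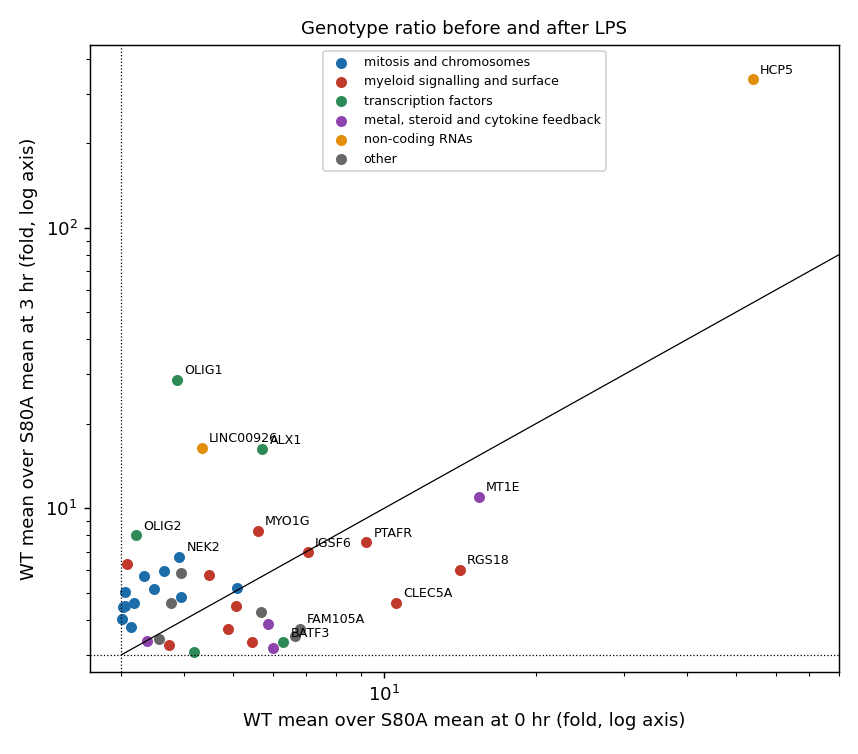
Ratio of the WT mean to the S80A mean (3 libraries each) at 0 hr on the x axis and at 3 hr on the y axis for 40 of the 41 genes, both on log axes, coloured by role; dotted lines mark the ratio of 3 used to choose them. All 12 genes of mitosis lie above the diagonal, that is, with the larger ratio at 3 hr, and HCP5 lies far above the rest. Of the 12, 10 were listed for LPS in S80A only, as falling, which favours that side.

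Promoters of some of these genes are printed here as examples, from RefSeq (GRCh38.p14), as the 250 bases before the start, 5′ to 3′ in the direction of transcription. The first 5 belong to mitotic genes, with CCAAT boxes (the letters CCAAT on either strand) and CHR elements (TTTGAA on either strand) in capitals where the printed bases hold them. MT1X has matches to a loose form of the metal response element core (TGCNCNC) and CISH has GAS elements (TTCNNNGAA) in capitals.
CENPF, chr1:214602945-214603194, plus strand: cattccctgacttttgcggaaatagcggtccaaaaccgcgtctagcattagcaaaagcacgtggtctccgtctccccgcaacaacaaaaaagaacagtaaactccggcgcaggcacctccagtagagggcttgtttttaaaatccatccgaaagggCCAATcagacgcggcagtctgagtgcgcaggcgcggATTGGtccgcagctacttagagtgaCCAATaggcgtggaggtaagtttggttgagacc
KIF20A, chr5:138178862-138179111, plus strand: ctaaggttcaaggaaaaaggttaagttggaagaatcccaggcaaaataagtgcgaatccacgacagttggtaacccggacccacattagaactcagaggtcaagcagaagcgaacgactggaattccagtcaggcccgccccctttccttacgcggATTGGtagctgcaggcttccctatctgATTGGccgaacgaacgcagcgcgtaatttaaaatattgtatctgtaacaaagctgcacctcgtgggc
HJURP, chr2:233854536-233854785, minus strand: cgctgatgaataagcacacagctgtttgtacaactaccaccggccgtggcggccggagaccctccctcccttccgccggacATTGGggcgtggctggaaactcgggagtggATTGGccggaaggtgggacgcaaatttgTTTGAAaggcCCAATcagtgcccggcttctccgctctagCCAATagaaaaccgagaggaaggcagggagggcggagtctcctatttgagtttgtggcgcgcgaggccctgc
NEK2, chr1:211675622-211675871, minus strand: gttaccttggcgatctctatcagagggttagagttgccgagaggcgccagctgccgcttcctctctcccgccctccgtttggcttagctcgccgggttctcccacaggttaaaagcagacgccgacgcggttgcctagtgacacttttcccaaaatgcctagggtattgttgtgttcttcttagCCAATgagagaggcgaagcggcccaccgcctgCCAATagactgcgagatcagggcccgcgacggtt
KIF23, chr15:69414099-69414348, plus strand: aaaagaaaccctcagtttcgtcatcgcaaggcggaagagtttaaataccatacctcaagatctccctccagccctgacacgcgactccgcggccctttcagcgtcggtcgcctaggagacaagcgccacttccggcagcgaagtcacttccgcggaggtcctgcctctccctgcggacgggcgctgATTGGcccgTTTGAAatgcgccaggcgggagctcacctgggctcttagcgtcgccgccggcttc
MT1X, chr16:56682220-56682469, plus strand: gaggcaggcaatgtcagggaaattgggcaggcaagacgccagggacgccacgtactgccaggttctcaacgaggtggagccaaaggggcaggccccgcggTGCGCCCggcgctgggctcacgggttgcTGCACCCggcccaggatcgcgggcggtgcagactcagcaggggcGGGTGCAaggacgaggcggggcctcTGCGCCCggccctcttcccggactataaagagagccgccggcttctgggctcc
CISH, chr3:50611775-50612024, minus strand: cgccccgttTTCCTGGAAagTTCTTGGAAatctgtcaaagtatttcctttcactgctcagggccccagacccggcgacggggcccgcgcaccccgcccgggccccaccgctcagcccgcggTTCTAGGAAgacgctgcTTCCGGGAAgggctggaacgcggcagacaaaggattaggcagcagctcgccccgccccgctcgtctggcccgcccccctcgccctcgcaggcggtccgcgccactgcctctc

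Of the 41 genes, 24 had exactly 1 promoter in the RefSeq table and were searched over 300 bases (250 before the start and 50 after it), on both strands unless stated. A CCAAT box was in 15 of the 24 and in 34.6% of all 35116 promoters; it was in 8 of the 9 promoters of mitotic genes. The CHR letters were in 9 of the 24, in 5 of the 9 mitotic promoters and in 15.2% of all promoters. The NF-κB motif was in 5 of the 24 against 11.3% of all, and the ETS letters GGAAGT in 9 against 22.8%. GAS letters were in 2 of the 24 against 7.66%, with 4 matches in CISH alone. The letters TGCNCNC, a loose form of the metal response core searched after the set was known, are common. They were in 12 of the 24 and in 55.9% of all promoters, and MT1X had 4 matches. These matches describe letters in a window and are not binding sites.

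Genes of mitosis and chromosomes formed 1 of the 2 largest groups. In S80A cells all 12 fell with LPS in the authors' deposited table, and in WT cells 2 of 12, KIF20A and NEK2, were listed, both as falling. Across the 41 genes, the authors' deposited tables listed 13 as rising and 10 as falling in WT, and 13 as rising and 20 as falling in S80A, where the shares of all 3281 genes were 43.9% rising and 27.2% falling in WT and 46.2% and 30.2% in S80A. With limma on log2(scaled reads + 1), which tests every listed gene in both genotypes, 7 of the 12 were lower at 3 hr in WT and 12 of 12 in S80A at an adjusted p below 0.05. The 5 that missed it in WT were CDCA2, CENPA, HJURP, SPC24 and FAM64A, and with the replicate number as a block within each genotype CDCA2 and CENPA passed (adjusted p = 0.0243 and 0.0374). Over all 41 genes limma called 15 higher and 18 lower in WT, and 15 higher and 21 lower in S80A, against 51.9% higher and 36.3% lower of all listed genes in WT and 51.8% and 37% in S80A. edgeR with TMM scaling over the listed genes alone, which shifts the median LPS response of all of them by -0.61 on the log2 scale, called 10 higher and 24 lower in WT and 11 and 23 in S80A. Being listed in a table was part of the choice, so these counts are descriptions.

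CENPF, a large kinetochore protein of dividing cells (chromosome 1, 214603195 to 214664588, GRCh38), had the highest levels of the group. Its WT values were 4420.3, 2837 and 3194 scaled reads at 0 hr and 2315, 1671 and 1415 at 3 hr. Its S80A values were 1057, 1126 and 1296 at 0 hr and 645, 349.7 and 350.1 at 3 hr. No S80A library reached the lowest WT library of its time, and at 3 hr S80A replicate 1 was the highest of the S80A libraries.

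KIF20A, a kinesin of the central spindle needed for cytokinesis, measured 1012, 809 and 738 in WT and 222, 156 and 125 in S80A at 0 hr. At 3 hr it measured 446, 257 and 273 in WT and 119, 31.1 and 38.4 in S80A. The drop with LPS was similar in the authors' deposited tables, -1.33 on the log2 scale in WT and -1.34 in S80A, and the ratio between genotypes was 5.09 at 0 hr and 5.19 at 3 hr. KIF23, the kinesin of the centralspindlin complex, measured 814, 600.0 and 672 in WT and 194, 200.1 and 271 in S80A at 0 hr, and 509.8, 302 and 331 in WT and 170.4, 51.8 and 81.5 in S80A at 3 hr. KIF18B, a kinesin of microtubule plus ends, went from 1027, 917 and 825 to 713, 429 and 487 in WT and from 247, 238 and 217 to 170.4, 66.7 and 99.5 in S80A. In both, S80A replicate 1 was well above the other 2 S80A libraries at 3 hr, and this was not so at 0 hr.

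NEK2, a kinase that parts the centrosomes, was at 495, 456 and 461 in WT and 133, 92.3 and 135 in S80A before LPS. After LPS it was at 228, 198 and 164 in WT and 58.3, 10.4 and 19.2 in S80A, and in S80A replicates 2 and 3 these are among the lowest levels of the group. The authors' deposited log2 fold was -1.21 in WT and -1.92 in S80A.

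CENPA, the histone H3 variant of centromeres, measured 320.4, 286 and 353 in WT and 95.6, 83.0 and 109 in S80A at 0 hr, then 231, 147 and 170.2 in WT and 59.4, 17.3 and 19.2 in S80A at 3 hr. HJURP, the chaperone that places CENPA on centromeres, measured 947, 675 and 635 in WT and 229, 275 and 241 in S80A at 0 hr, then 593, 382 and 456 in WT and 183, 58.7 and 81.5 in S80A at 3 hr. In both, S80A replicate 1 was the highest S80A library at 3 hr and was not at 0 hr. CDCA2, which brings protein phosphatase 1 to chromatin as mitosis ends, went from 1031, 733 and 732 to 742, 447 and 506 in WT and from 275, 261 and 282 to 159, 79.4 and 99.5 in S80A. UHRF1, which keeps DNA methylation through replication, went from 1049.7, 1038 and 851 to 623, 471 and 465 in WT and from 366, 299 and 301 to 183, 69.0 and 97.1 in S80A. In both, the WT libraries at 3 hr were still above every S80A library at 0 hr.

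EME1, a partner of the MUS81 nuclease, SPC24, a subunit of the NDC80 kinetochore complex, and FAM64A (now PIMREG) had the lowest WT means of the group, between 196 and 247 at 0 hr. Their WT to S80A folds were 3.49, 3.64 and 3.19 at 0 hr and 5.14, 5.97 and 4.60 at 3 hr. For the 12 genes together the median fold was 3.26 at 0 hr and 4.93 at 3 hr, and it was larger at 3 hr for 12 of 12. Of the 12, 10 were listed for LPS in S80A only, as falling, which favours a larger fold at 3 hr. Over all listed genes, 1624 of 3281 had the larger fold at 3 hr. S80A replicate 1 was the highest S80A library for 4 of the 12 at 0 hr and for 11 at 3 hr.

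A wider list of 65 genes of mitosis and the cell cycle, of which 13 were in the tables, held 5 of these genes (KIF20A, KIF23, CENPF, CENPA and NEK2). Of its 8 other listed genes, 5 had all S80A libraries below all WT libraries at 0 hr and 5 at 3 hr, and 1 and 2 had them all above, where all listed genes gave 17.5% and 23.3% below and 31.6% and 35.7% above. The 5 below were the same at both times: CDC20, PLK1 and AURKA, which met the limits of the set and were left out of it by name, so that they add nothing independent, and CDC25B and CDC6. CDKN1A, the p21 inhibitor of the cell cycle, was above at both times, with a mean of 3194 in WT and 13137 in S80A at 0 hr and of 10913 and 57108 at 3 hr. Of 18 markers of proliferating cells, KIF20A and CENPF were the 2 listed, and both are members. In these bulk libraries fewer cells that divide and less RNA per cell cannot be told apart.

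Myeloid signalling and surface genes were the other large group, and here the response to LPS went both ways. Of the 12, per the authors' deposited tables, 7 rose and 3 fell in WT, and 6 rose and 2 fell in S80A. MYO1G, a class I myosin of blood cells, measured 699.8, 874 and 969.6 in WT and 277, 102 and 75.6 in S80A at 0 hr. At 3 hr it measured 2232, 3390.5 and 3692 in WT and 728, 232 and 162 in S80A, with replicate 1 the highest of the S80A libraries at both times. IGSF6, an immunoglobulin-superfamily surface protein of myeloid cells, rose from 139, 250.1 and 294 to 839, 847 and 961 in WT and from 41.8, 19.4 and 35.7 to 243, 56.4 and 80.3 in S80A. For both genes S80A replicates 2 and 3 after LPS were below every untreated WT library, and replicate 1 was not.

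PTAFR, the receptor for platelet-activating factor (chromosome 1, 28147166 to 28193936), rose from 95.3, 125 and 166 to 807, 882 and 927 in WT. In S80A it rose from 22.9, 8.53 and 10.5 to 186, 86.3 and 73.1, so that replicates 2 and 3 after LPS stood below all 3 untreated WT libraries. P2RX7, the ATP-gated channel that can trigger the NLRP3 inflammasome, measured 137, 240.5 and 237 in WT and 32.9, 78.3 and 53.5 in S80A at 0 hr, then 644, 1772 and 1785 in WT and 184, 639.5 and 464 in S80A at 3 hr. For P2RX7 replicate 1 was the lowest library of its group in all 4 groups, and S80A replicate 2 at 3 hr was just under the lowest WT library.

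TNFSF13B, the B-cell survival factor BAFF, rose from 66.7, 106 and 69.4 to 637, 910.4 and 967 in WT and from 17.9, 20.2 and 6.30 to 435, 233 and 87.5 in S80A. Its fold between genotypes was 5.46 at 0 hr and 3.32 at 3 hr. CLEC5A, a C-type lectin that signals through DAP12, measured 186, 81.2 and 123 in WT and 12.0, 6.20 and 18.9 in S80A at 0 hr, then 284, 127 and 198 in WT and 63.9, 29.9 and 38.4 in S80A at 3 hr. The S80A levels of CLEC5A at 0 hr rest on few reads. LPAR4, a receptor for lysophosphatidic acid, measured 58.9, 61.9 and 72.6 in WT and 9.96, 10.1 and 23.1 in S80A at 0 hr, then 126, 140.1 and 155 in WT and 39.2, 21.9 and 12.0 in S80A at 3 hr.

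CXCR2, the receptor for CXCL8 and related chemokines, fell with LPS in both genotypes. It measured 374, 351 and 414 in WT and 114, 67.5 and 43.0 in S80A at 0 hr, then 49.3, 47.8 and 57.8 in WT and 15.7, 8.05 and 10.8 in S80A at 3 hr. In the authors' deposited tables the log2 fold was -2.80 in WT and -2.54 in S80A, and untreated S80A cells lay between untreated and LPS-treated WT cells in replicates 1 and 2 and just below the latter in replicate 3. SELPLG, the selectin ligand PSGL-1, went from 1099, 1061 and 876 to 341, 445 and 389.7 in WT and from 292, 191 and 139 to 124, 98.9 and 92.3 in S80A. GPR18, a G protein-coupled receptor of leukocytes, went from 243, 235 and 223 to 98.7, 158 and 136 in WT and from 89.6, 78.3 and 59.8 to 28.0, 21.9 and 12.0 in S80A. Both kept the S80A libraries under the WT libraries of the same time.

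RGS18, which limits G protein signalling in blood cells, went from 575, 417 and 528 to 143, 114 and 105 in WT. In S80A it went from 73.7, 13.96 and 19.9 to 43.7, 11.5 and 4.80, and untreated S80A cells already lay below LPS-treated WT cells in every library. The LPS difference in S80A was -0.95 on the log2 scale with an adjusted p of 0.189 (limma), and 0.0143 with the replicate block within genotype. A list of 41 genes of G protein signalling, 19 of them listed, held RGS18, P2RX7 and PTAFR; of its 16 other listed genes, all S80A libraries were below all WT libraries for 2 at 0 hr and 2 at 3 hr and above them for 7 and 6, against the same shares of all listed genes as given for the mitotic list.

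**Figure D3:**
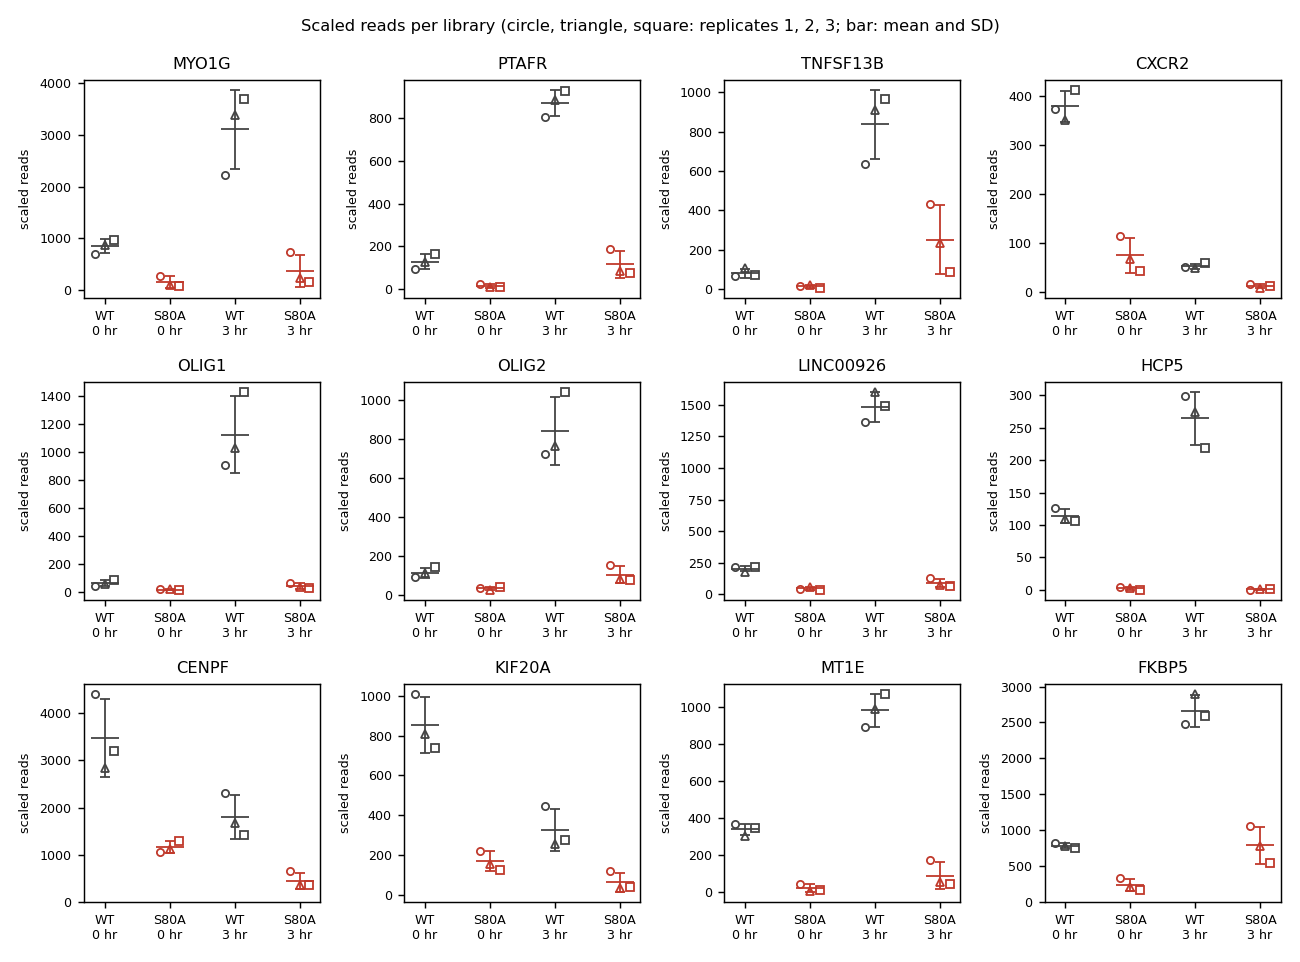
Scaled reads (linear y axis) in each library for 12 genes of different roles, with the 4 groups along the x axis; circle, triangle and square are replicates 1, 2 and 3, and bars are the mean and SD of 3 libraries. The mean of OLIG1 climbs 19.3 times with LPS in WT and 2.59 times in S80A, and that of LINC00926 7.25 and 1.91 times. FKBP5 climbs by a like factor in both genotypes, 3.41 and 3.42 times, from a lower start in S80A.

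The 5 transcription factors held 3 of the 4 genes whose response to LPS differed between genotypes. The difference was tested as the genotype by LPS interaction with limma over all 3281 genes. It is the S80A response minus the WT response, on the log2 scale. The fold of 3 at both times does not fix its direction, but it uses the same 12 libraries. Being listed for LPS in 1 genotype only does favour a direction, and 8 of the 41 genes were listed in WT only and 18 in S80A only. Among them were LINC00926, rising in WT only, and ALX1, falling in S80A only, so their listing favours an interaction below 0. OLIG1 and OLIG2 were listed in both genotypes. Of the 41 genes 0 were called higher and 4 lower, against 7.92% higher and 7.56% lower of all listed genes. At an unadjusted p below 0.05, 1 was higher and 6 were lower; edgeR called 0 higher and 3 lower, with TMM or with the authors' size factors, and DESeq2 0 and 4. The median interaction was -0.30 for the 41 genes, 24 below 0 and 17 above, and 0.0004 for all listed genes. The 37 that were not called ranged from -1.81 to 1.16, and for them a difference between genotypes is not excluded.

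OLIG1, a basic helix-loop-helix factor known from oligodendrocyte development (chromosome 21, 33070144 to 33072420), showed the largest difference of the 41 genes. Its WT values were 38.1, 55.5 and 80.7 scaled reads at 0 hr and 902, 1027 and 1428 at 3 hr. Its S80A values were 16.9, 15.5 and 12.6 at 0 hr and 61.7, 31.1 and 24.0 at 3 hr. After LPS, S80A replicates 2 and 3 were below the lowest untreated WT library, and replicate 1 was inside the untreated WT range. The authors' deposited log2 fold was 4.14 in WT and 1.29 in S80A. The interaction was -3.07 ± 0.52 (SE, limma adjusted p = 0.00313), with adjusted p from 1.12e-05 to 0.0128 over 23 alternatives and the call kept in all 23.

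OLIG2, its neighbour and close relative (chromosome 21, 33025845 to 33029196), rose from 90.9, 113 and 143 to 725, 764 and 1044 in WT and from 37.8, 27.1 and 43.0 to 156, 80.5 and 79.1 in S80A. After LPS, S80A replicate 1 was above all untreated WT libraries, and replicates 2 and 3 were below them. Its interaction was -1.39 ± 0.43 (limma adjusted p = 0.047); over 23 alternatives the adjusted p ran from 0.00745 to 0.116 and the call was kept in 8. Leaving out any WT library, S80A replicate 1 or 3 at 0 hr, or S80A replicate 2 or 3 at 3 hr ended it. The next listed gene on that side of chromosome 21, IFNAR2, was not lower in S80A, with means of 1422 in WT and 1542 in S80A at 0 hr and 1879 and 3921 at 3 hr.

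ALX1, a homeobox factor of craniofacial development, measured 134, 169 and 182 in WT and 35.9, 24.8 and 24.1 in S80A at 0 hr. At 3 hr it measured 91.6, 91.4 and 101 in WT and 5.61, 3.45 and 8.39 in S80A, a handful of reads in each S80A library. It fell in both genotypes by limma (-0.76 and -2.15 on the log2 scale, adjusted p = 0.0316 and 3.52e-05), more in S80A. The interaction was -1.39 ± 0.43 (limma adjusted p = 0.047), from 0.0251 to 0.181 over 22 alternatives with the call kept in 11. Leaving out any WT library, S80A replicate 1 or 2 at 0 hr or S80A replicate 2 at 3 hr ended it, and so did leaving out S80A replicate 1 at both times (adjusted p = 0.0674).

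GFI1, a zinc-finger repressor that shapes myeloid differentiation, had the highest mean of the 5 at 0 hr in both genotypes and in S80A at 3 hr. In WT at 3 hr its mean of 764 was below those of OLIG1 (1119) and OLIG2 (844). GFI1 fell from 2245, 2509 and 2214 to 608, 896 and 789 in WT and from 745, 438 and 479.6 to 186, 230.0 and 333 in S80A. Untreated S80A cells overlapped LPS-treated WT cells. GFI1 is also a marker of undifferentiated myeloid precursors, and of that 12-gene list 4 were in the tables; their summed level was 2371 to 2661 in WT and 480 to 846 in S80A at 0 hr, and 1038 to 1281 and 346 to 560 at 3 hr, mostly GFI1 itself. The other 3 did not move as one: CD38 had means of 107 in WT and 23.8 in S80A at 0 hr and 371 and 156 at 3 hr, CEBPE 55.9 and 31.5 and then 7.24 and 7.31, and CD34 0.538 and 0.958 and then 16.4 and 27.6. Whether the state of differentiation plays a part in the result was not tested.

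BATF3, an AP-1 family factor of dendritic cell development, rose from 52.8, 108 and 80.7 to 119.8, 408 and 228 in WT and from 14.9, 13.96 and 9.45 to 35.9, 129.98 and 61.1 in S80A. It was the 1 gene whose genotypes overlapped at 3 hr, where S80A replicate 2 exceeded WT replicate 1. Replicate 1 was the lowest WT library at both times.

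**Figure D4:**
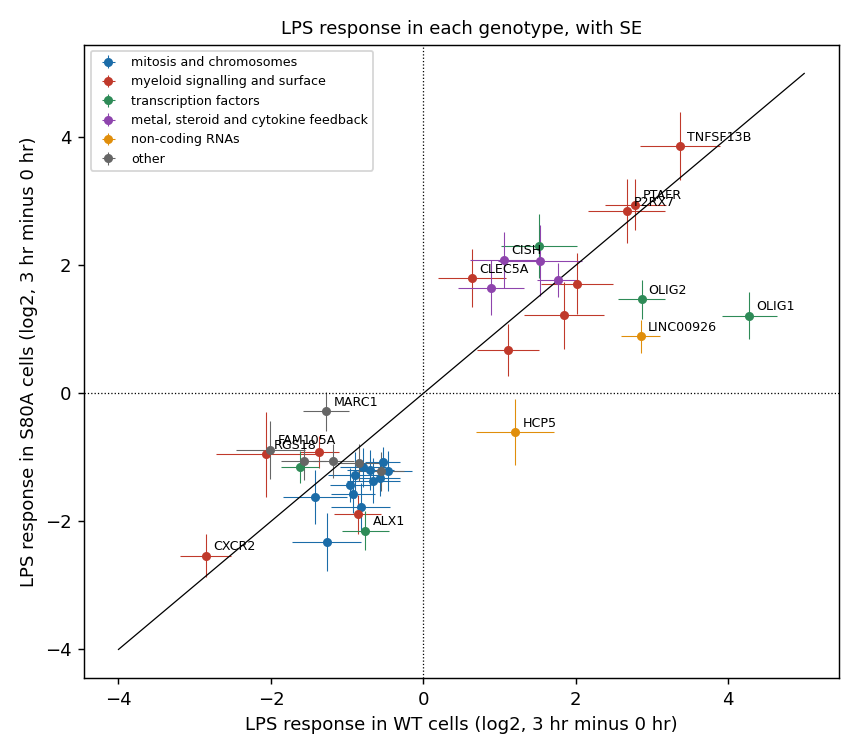
Response to LPS of 40 of the 41 genes (log2 of 3 hr over 0 hr, limma on log2(scaled reads + 1)) in WT on the x axis and in S80A on the y axis, with the diagonal of equal responses; bars are SE. OLIG1, LINC00926, OLIG2 and ALX1, the 4 genes called for the interaction, lie below the diagonal, and all 12 genes of mitosis lie below it closer by. ALX1 and 10 of the 12 were listed as falling in S80A only, and LINC00926 as rising in WT only, which favours that side.

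LINC00926, a long non-coding RNA (chromosome 15, 57300365 to 57307769), had its group means in the same order as OLIG1, highest in WT after LPS and lowest in untreated S80A. Its WT values were 214, 181 and 219 at 0 hr and 1366, 1602 and 1488 at 3 hr. Its S80A values were 44.8, 58.9 and 37.8 at 0 hr and 127, 75.9 and 68.3 at 3 hr. All S80A libraries after LPS were below all untreated WT libraries. The interaction was -1.96 ± 0.36 (limma adjusted p = 0.00477), from 1.49e-05 to 0.0182 over 22 alternatives, with the call kept in all 22.

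HCP5, a non-coding RNA of the HLA region (chromosome 6, 31400702 to 31477506), was nearly without reads in S80A. Its WT values were 126, 109 and 106 at 0 hr and 299.5, 275 and 219 at 3 hr. The S80A libraries held 4, 3 and 0 reads at 0 hr and 0, 1 and 1 at 3 hr. WT held 412 reads at 0 hr and 725 at 3 hr, so pooled reads adjusted for size factors had a ratio of 52.5 (95% interval 25.3 to 131) and of 342 (94.4 to 2832), intervals that cover counting error only. The rise in WT was 1.21 on the log2 scale (limma adjusted p = 0.0417, and 0.0557 with the replicate block within genotype), and 1.21 in the authors' deposited table. Of the listed neighbours, TNF, which encodes the cytokine, had like means in both genotypes. They were 67.0 in WT and 58.1 in S80A at 0 hr, and 15401 and 13280 at 3 hr. The neighbours LTA and LTB differed between genotypes at 3 hr, in opposite directions. LTA had means of 128 in WT and 54.4 in S80A at 3 hr, and LTB of 118 and 1110. At 0 hr LTB had means of 28.9 in WT and 33.9 in S80A, and LTA had few reads in both. HCP5 overlaps MICA on the same strand, and how reads were shared out between them is unknown.

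All 4 feedback genes rose with LPS in S80A from low levels, and 3 of them, all but MT1X, in WT (limma; MT1X passed with the replicate block within genotype, adjusted p = 0.0163). FKBP5, a co-chaperone of the glucocorticoid receptor and itself a target of it, rose from 814, 781 and 745 to 2475, 2902 and 2591 in WT and from 326, 201 and 166 to 1051, 776 and 539.5 in S80A. The authors' deposited log2 fold was 1.73 in both genotypes, and the fold between genotypes was 3.38 at 0 hr and 3.37 at 3 hr. CISH, a SOCS-family inhibitor of cytokine receptors that STAT5 induces, measured 121, 121 and 88.7 in WT and 34.9, 10.9 and 9.45 in S80A at 0 hr, then 295, 209 and 193 in WT and 62.8, 108 and 48.0 in S80A at 3 hr.

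MT1E and MT1X are metallothioneins, small metal-binding proteins encoded in 1 cluster (chromosome 16, 56625475 to 56627112, and 56682424 to 56684196). MT1E measured 365, 305 and 345 in WT and 45.8, 8.53 and 11.5 in S80A at 0 hr, then 888, 987 and 1066 in WT and 170.4, 52.9 and 44.4 in S80A at 3 hr. MT1X measured 107, 72.4 and 80.7 in WT and 28.9, 6.98 and 8.40 in S80A at 0 hr, then 154, 153 and 171 in WT and 56.1, 35.7 and 32.4 in S80A at 3 hr. In both, S80A replicate 1 was the highest S80A library at each time, and the S80A libraries after LPS stayed below the untreated WT libraries. The 2 genes belong to 1 family with similar sequences, so reads may have been split between them and their values are uncertain. Shared reads were not measured. All 4 feedback genes had an interaction above 0, from 0.01 to 1.03, and none was called. CISH, MT1E and MT1X were listed for LPS in S80A only, as rising, which favours that sign. Over all listed genes, 1641 of 3281 had an interaction above 0.

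Of the 6 other genes, 5 were lower at 3 hr in WT and 4 in S80A (limma), and the replicate block within genotype added MTFR2 in WT (adjusted p = 0.0401). FAM105A (now OTULINL) fell from 2281, 1956 and 1963 to 552, 538 and 449.6 in WT. In S80A it measured 611, 139 and 164 at 0 hr and 206, 109 and 98.3 at 3 hr, with replicate 1 the highest each time. Its LPS difference in S80A was not called (-0.88, limma adjusted p = 0.0823) but was with the replicate block within genotype (adjusted p = 0.0045). With that block its interaction, 1.13, was called higher (limma adjusted p = 0.0340), that is, a smaller fall in S80A. FAM105A was listed for LPS in WT only, as falling, which favours that sign. MARC1 (now MTARC1), an oxidoreductase of the mitochondrial outer membrane, measured 247, 252 and 300.1 in WT and 60.8, 27.9 and 31.5 in S80A at 0 hr, then 92.8, 125 and 112 in WT and 40.4, 27.6 and 26.4 in S80A at 3 hr. MTFR2, a regulator of mitochondrial fission, BDH1, a ketone body dehydrogenase, ANKRD35 and NEURL1B had WT means at 0 hr from 203 to 384 and folds from 3.57 to 5.68.

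**Figure D5:**
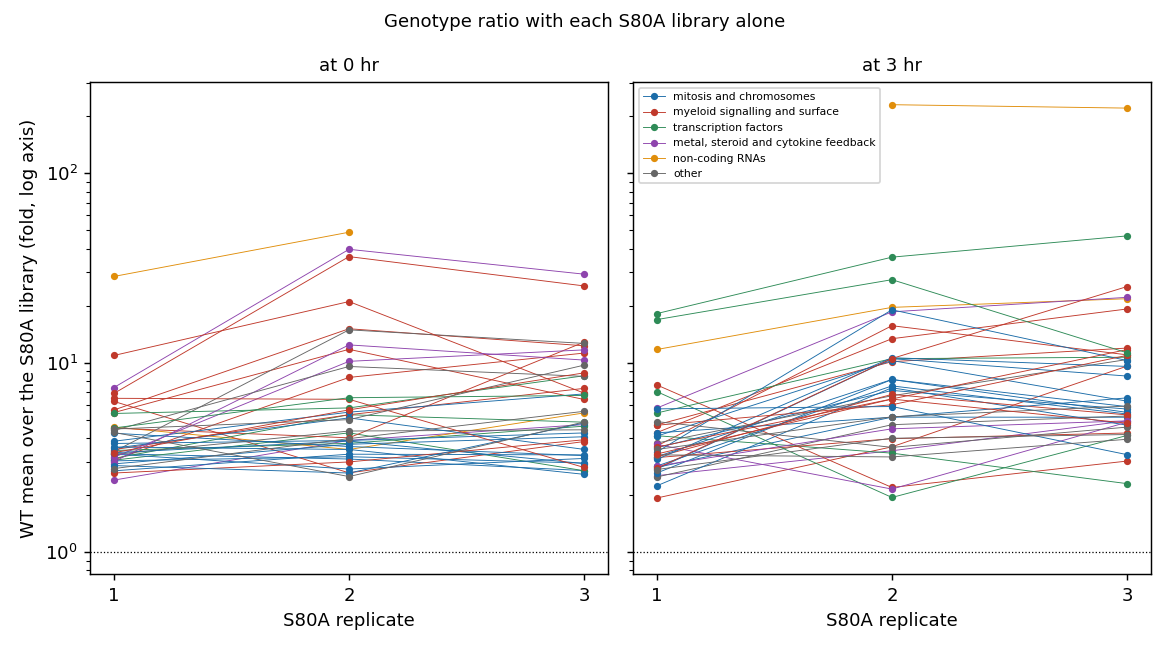
Ratio of the WT mean to each single S80A library (y axis, log scale) for 40 of the 41 genes at 0 hr and at 3 hr; points are genes, lines join the same gene across libraries that have no order, and HCP5 has no point where a library is at 0. Over all 41 genes the median ratio with replicate 1 is 3.47 at 0 hr and 3.55 at 3 hr, and at 3 hr most lines climb from replicate 1 to the other 2 libraries.

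Which genes counted as different in response rested in part on S80A replicate 1. Without it at both times, 5 genes were called higher in S80A (CISH, FAM105A, GFI1, MARC1 and MT1X) and 9 lower, against 13% and 14% of all listed genes under the same fit. The 9 were OLIG1, OLIG2 and LINC00926 together with 6 genes of mitosis and chromosomes, CDCA2, CENPA, HJURP, NEK2, SPC24 and UHRF1. Of the 5 called higher, CISH and MT1X were listed as rising in S80A only, and FAM105A and MARC1 as falling in WT only. Those listings favour an interaction above 0. With all libraries the interaction of the mitotic genes was below 0 for 12 of 12, with a median of -0.59 and a range of -1.06 to -0.20, and none was called. Of the 12, 10 were listed as falling in S80A only, which favours that sign. Over all listed genes, 1640 of 3281 had an interaction below 0. The myeloid genes had a median of 0.17, 5 below 0 and 7 above.

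By position the 41 genes were spread over 16 of the 24 chromosomes with a listed gene, and 4 of them had another member within 250 kb, as the OLIG pair and the metallothionein pair. Under GENCODE release 29, 39 are protein coding, 10 overlap another gene on the same strand and 19 one on the opposite strand; CENPA overlaps SLC35F6 on the same strand. Whether counting used the strand is not given in the sources used here, and reads of such partners may be mixed. Just inside the limit of 3 on the smaller of the 2 folds lay CENPF (3.00), HJURP (3.03) and UHRF1 (3.04), and just outside it ZNF788 (2.98), PIK3CD (2.93) and XRCC6BP1 (2.91).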

How the data were processed

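RNA-seq of 12 libraries was used: polyadenylated RNA, stranded libraries and single-end reads of 75 bases, per the labels' protocols. Build GRCh38 and, without version numbers, HISAT, HTSeq, DESeq2, FastQC, Cuffdiff and StringTie are named in the submitters' processing notes. The deposited values are a normalized signal per gene; all were whole reads within 0.01 after multiplication by 1 size factor per library (0.834 to 1.29), so they are read counts that the authors divided by size factors. The authors' deposited log2 fold changes and adjusted p-values were copied as they stand; each table held only genes with an adjusted p below 0.01 and a log2 fold past 1. The tables were joined on gene name, giving 3281 genes.

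Values plus a pseudocount of 1 were taken to log2 and fitted with limma 3.58.1 (trend, 4 group means, 12 libraries), with Benjamini-Hochberg adjustment over 3281 genes and a threshold of 0.05, for the LPS response in each genotype and for their difference. Alternatives used edgeR 4.0.16 and DESeq2 1.42.0 on the recovered reads. The script was tested on simulated data. Same-numbered libraries deviated together within a genotype (6 pairs, r from 0.153 to 0.343). Across genotypes r ran from 0.00318 to 0.259 (12 pairs), and at 0 hr it was 0.188, 0.245 and 0.259. These ranges overlap, so pairing within a genotype only is a choice that they do not settle. Blocks by replicate number, over all libraries and within each genotype, were alternatives, and the main fit had no pairing. The members, lists and tests were chosen with earlier results of these data known. The rule for naming took the 30 with the largest WT mean, those called for the interaction, those in a list and the 3 on either side of the fold limit; other genes of a list are given as counts with up to 4 examples. ANKRD35, BDH1, CISH, FAM64A, GPR18, LPAR4, MT1X and NEURL1B, and the markers and neighbours named, fall outside it and were chosen after their values were seen. Positions are from GENCODE release 29; all 41 members matched. Promoters matched 24 of them; those with several start sites were not used. Exact Poisson-based 95% intervals were used for HCP5. 1 member is counted but is not reported by name here and is not drawn.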

Additional observations from a re-analysis of the deposited data

Results flagged for a closer look

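The LPS response of 4 genes differed between genotypes by the interaction test of limma over all listed genes. OLIG1 had an interaction of -3.07 on the log2 scale, with a WT response of 4.28 and an S80A response of 1.21. LINC00926 had -1.96, from 2.85 in WT and 0.89 in S80A. OLIG2 had -1.39, from 2.86 and 1.47, and its call was kept in 8 of 23 alternatives. ALX1 had -1.39, from -0.76 and -2.15, and its call was kept in 11 of 22 alternatives. The calls of OLIG1 and LINC00926 were kept in all alternatives run for them. LINC00926 was listed as rising in WT only and ALX1 as falling in S80A only, which favours the sign of their interaction.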

How the results depend on the processing

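The set held 41 genes. A fold of 2 gave 109 and a fold of 4 gave 13. Medians gave 42 (34 shared, 7 lost, with OLIG2 and CXCR2 among the 7), and TMM scaling gave 56 (40 shared, CXCR2 lost). Leaving out 1 library gave 37 to 47, and without WT replicate 3 at 0 hr the genes lost were OLIG1 and OLIG2. Leaving out S80A replicate 1 at both times gave 52 (34 shared). TMM over the listed genes alone moved the median genotype difference of all genes by -0.18 at 0 hr and -0.20 at 3 hr. It moved the median LPS response by -0.61. All 41 stayed lower in S80A, but the choice by a fold of 3 fixed this for a genotype shift of that size, so it tests nothing.

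Genes in both tables (15 members) gave 9 higher and 6 lower with LPS in each genotype. The authors' calls had already chosen these genes as LPS-responsive in both genotypes, so those counts test nothing. Of all 1562 genes in both tables, the authors' calls had 1045 rising and 509 falling in both genotypes. By the interaction 1 of the 15 members was lower, with fewer genes tested there. Leaving out 1 library gave 11 to 16 higher and 13 to 23 lower in WT, 14 to 16 and 21 to 23 in S80A, and 0 to 4 higher and 2 to 11 lower by the interaction. Without S80A replicate 1 at both times the interaction gave 5 higher and 9 lower. The replicate block over all libraries gave 0 higher and 4 lower by the interaction. The replicate block within genotype gave 1 higher and 4 lower, and beyond the calls named with the results it changed no other call of the members. No called response of a member reversed its sign under the settings run. Signs of responses that were not called could change. The LPS response of HCP5 in S80A was -0.60 on the log2 scale with all libraries and 0.25 without S80A replicate 1 at both times. Few reads limit some folds: the lowest library held 0 reads for HCP5, 3 for ALX1, 4 for RGS18, 6 for TNFSF13B, 7 for CXCR2, 8 for CLEC5A and MT1X, and 9 for BATF3, CISH and NEK2.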

Other observations

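2 more metallothionein genes of the same cluster on chromosome 16 were listed. MT2A had means of 251 scaled reads in WT and 48.9 in S80A at 0 hr, and of 3802 and 1642 at 3 hr. MT1M had means of 4.63 and 0.6997 at 0 hr, and of 17.6 and 7.65 at 3 hr. MT2A fell short of the fold of 3 at 3 hr, and MT1M fell short of the level of 50.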
